A study of Danio rerio with 18 samples.

Results

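The genes described here encode the bone morphogenetic protein (BMP) and transforming growth factor beta (TGF-beta) ligands, their receptors and the Smad proteins, measured as RNA in sorted zebrafish embryo cells. Members were taken by symbol, ignoring case: names beginning with bmp, tgfb, gdf or smad and a digit, and names beginning with bmpr, tgfbr or acvr. The rule used no measured value. Of 28298 gene IDs with counts, 64 met it, and they carry 52 distinct symbols. They comprise 16 BMP-type ligands, 5 TGF-beta ligands, 5 other growth differentiation factors (GDF), 11 type I receptors, 9 type II receptors, 1 co-receptor, 13 Smads and 4 genes whose names match but which lie outside the core of the pathway. 12 symbols stand on 2 Ensembl IDs each. For these the last digits of the ID follow the symbol, leading zeros dropped, so that SMAD3 (ID 36096) is ENSDARG00000036096. An upper-case symbol is the one the symbol table gives, and does not say which zebrafish duplicate is meant.

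Ligands of this family are secreted dimers that bind a complex of type I and type II receptor kinases. The type I receptor then phosphorylates a receptor Smad, which is SMAD1, SMAD5 or SMAD9 in the BMP branch and SMAD2 or SMAD3 in the TGF-beta and activin branch. SMAD4 joins both branches on the way to the nucleus, and SMAD6 and SMAD7 inhibit them. In the vertebrate heart BMP signals are known for their part in specifying cardiac tissue, in looping and in the atrioventricular canal, and TGF-beta signals for their part in valve cushions and matrix.

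The 18 libraries were made from cells sorted as GFP-positive or GFP-negative. They cover 6 conditions: wild type at 24, 48 and 72 hours post fertilization (hpf), and, at 72 hpf, the backgrounds that the labels call gata5, tbx5 and hand2. A condition holds 3 libraries, a GFP-positive pair and 1 that is GFP-negative. The study set out to profile cardiomyocytes during heart development. Neither the alleles behind the background names, nor the reporter that drives GFP, nor any pooling of embryos is stated in the labels. Nor do they say that the 2 GFP-positive libraries of a condition came from separate sorts, so every p-value here measures the spread between libraries, which may be technical. In RNA from sorted pools, fewer cells of a type and less RNA per cell cannot be told apart.

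Library totals ran from 12070094 to 32141901 counts in the GFP-positive fraction and from 5705157 to 18863332 in the GFP-negative one. The labelled cell type was checked against marker lists, by the summed level of each list in CPM, counts scaled to library size by the TMM method. Cardiomyocyte markers summed to 116 to 4170 CPM in the GFP-positive libraries and to 35.2 to 71.4 CPM in the GFP-negative ones, where up to 6 of 10 markers were at 0. Xanthophore (yellow pigment cell) markers summed to 157 to 374 CPM at 24 hpf and to 10900 to 36400 CPM in the later GFP-positive libraries, against 86.2 to 324 CPM in the GFP-negative ones. The GFP-positive fraction thus carried both sets of markers. HAND2 read 0 to 2.56 CPM in the 3 hand2 libraries and at least 11.3 CPM in the other libraries. In GFP-positive cells at 72 hpf, GATA5 read 17.1 and 14.0 CPM in gata5 against 22.1 and 37.3 CPM in wild type, and TBX5 read 15.5 and 5.18 CPM in tbx5 against 15.4 and 21.7 CPM. Across genes, the log2(CPM + 1) values of replicates correlated with r from 0.887 to 0.954, except for wild type at 72 hpf, where r was 0.824.

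Nearly all members were detected. 47 of the 64 had a count in every library, 24 read over 10 CPM in every library and 9 in none. Between 53 and 62 members had a count in a given library. Levels are not compared between genes, because the sources used here give no transcript lengths.

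**Figure D1:**
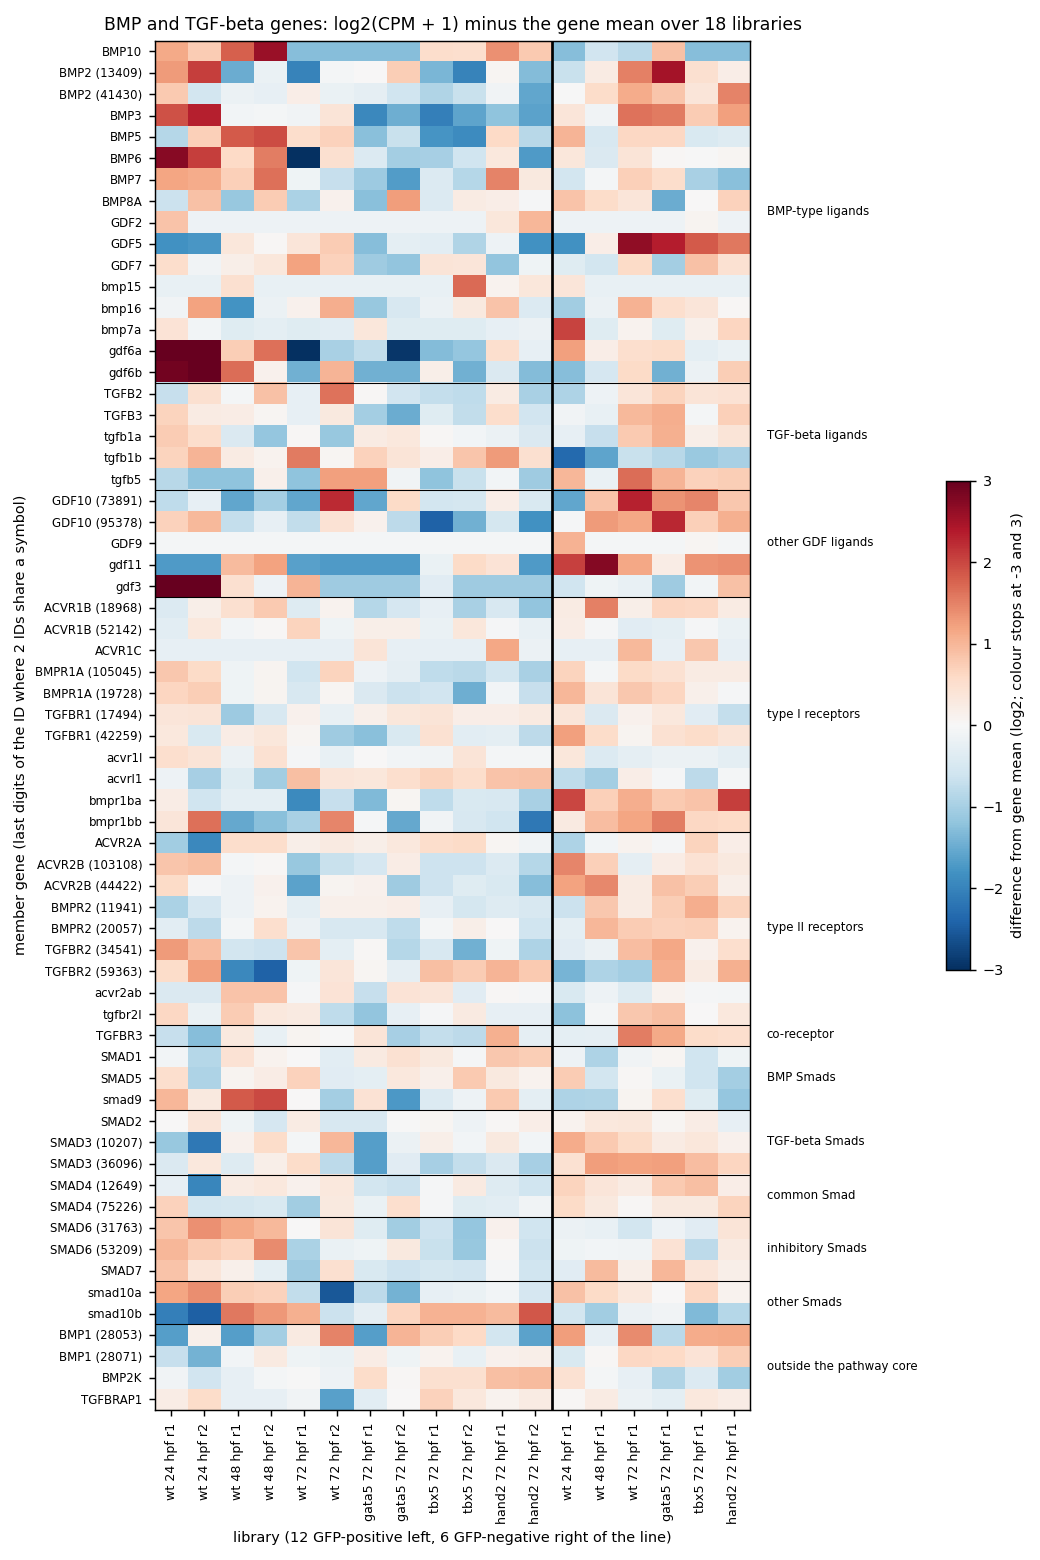
Heat map of the 64 members (rows, grouped by role) in the 18 libraries (columns, GFP-positive left and GFP-negative right of the line). Colour gives log2(CPM + 1) minus the mean of the gene over all libraries. BMP3 is red at 24 hpf and blue in the GFP-positive libraries of gata5, tbx5 and hand2, while tgfb1b is blue in the 6 GFP-negative libraries.

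The first comparison asked how the sorted cells differ from the rest of the embryo. Members mostly read lower in the GFP-positive fraction. Of 59 members tested, 18 passed an adjusted p of 0.05, which is 30.5% against 29.3% of all genes tested, so the share called was near the background. By direction, 16 were lower (27.1%, against 16.9% of all genes) and 2 were higher (3.39%, against 12.4%). The median log2 fold change of GFP-positive over GFP-negative was -0.5 over the members and -0.26 over all genes, and 41 of the 59 lay below 0. Within conditions, both GFP-positive libraries lay below the GFP-negative one in all 6 conditions for 9 members (15.3%, against 9.09% of all genes) and above it for 2 (3.39%, against 4.8%). Those 9 were gdf11 and 8 receptors or Smads: SMAD3 (ID 36096), ACVR1B (ID 18968), BMPR1A (ID 19728), bmpr1ba, TGFBR1 (ID 42259), BMPR2 (ID 20057) and both ACVR2B IDs.

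Neural, mesenchyme and cartilage markers moved with this contrast. The neural list summed to 73.5 to 552 CPM in GFP-positive and 729 to 1840 CPM in GFP-negative libraries, and the mesenchyme list to 882 to 4370 and 2920 to 13800 CPM. The cartilage list summed to 144 to 7510 and 840 to 14300 CPM. Their part in the lower member levels was not tested. In the 9 wild-type libraries alone only gdf11 was called among the members, and 686 genes in all. Without the 3 libraries at 24 hpf, a setting chosen after seeing the data, 26 members were called, 6 higher and 20 lower, and 17 of these were among the 18. The share of all genes called in that setting is not given here, so the larger count is not read as particular to the members.

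**Figure D2:**
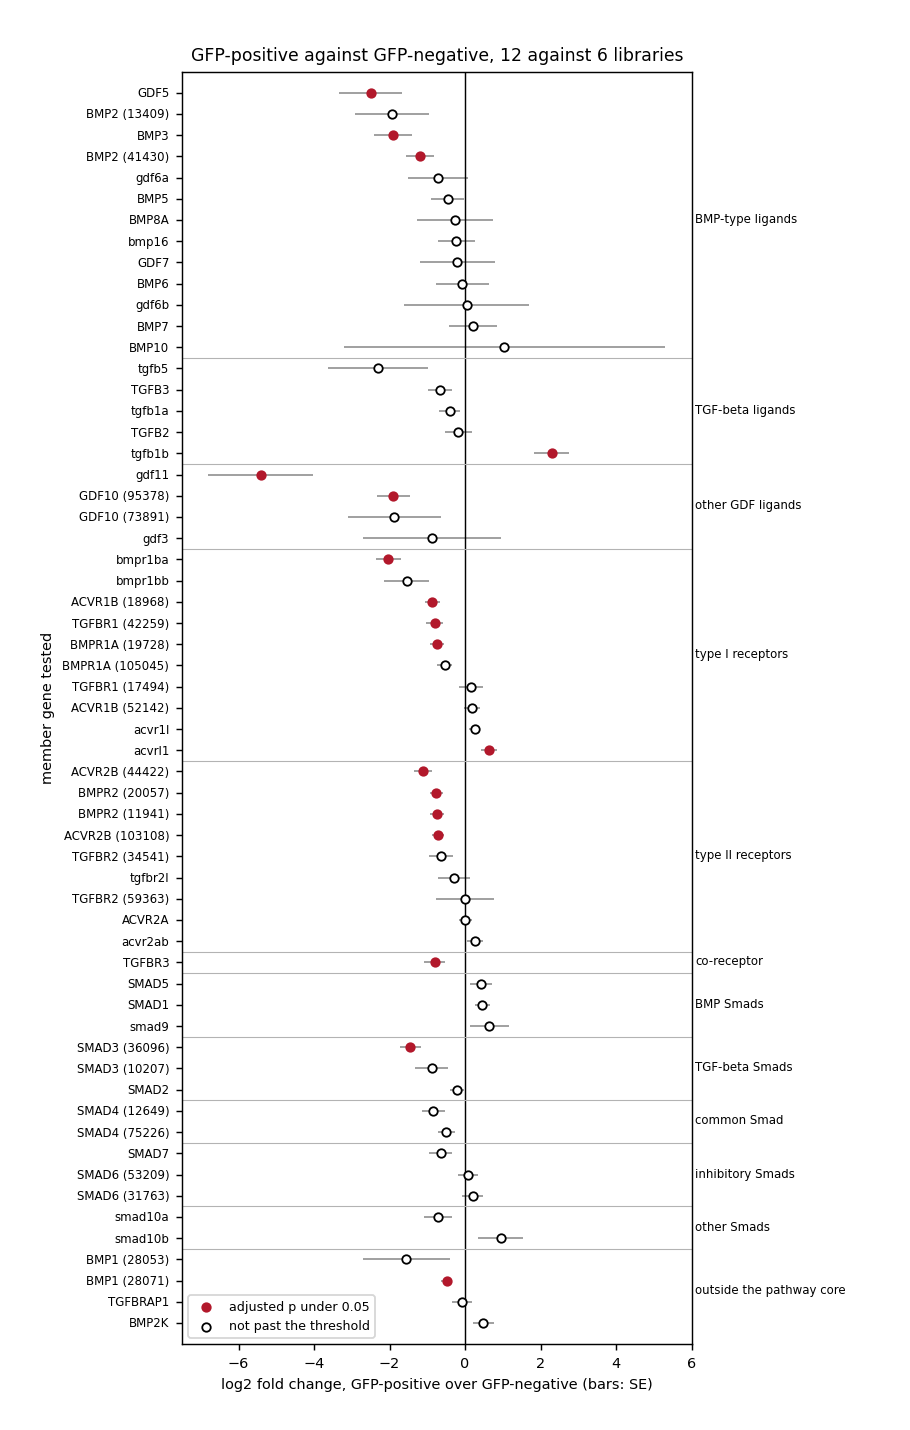
Log2 fold change of GFP-positive over GFP-negative libraries (x axis) for the 59 members tested (y axis, grouped by role), with bars for the standard error and filled points for adjusted p under 0.05. Filled points lie left of 0 except tgfb1b at 2.29 and acvrl1 at 0.64, and the 3 BMP Smads lie right of 0 as open points.

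Among the ligands, tgfb1b (ENSDARG00000034895), one of the zebrafish genes for TGF-beta 1, was higher in GFP-positive cells. It read from 7.01 to 21.7 CPM, with a median of 10.4, in the 12 GFP-positive libraries. In the GFP-negative libraries it read 0.514, 1.57 and 3.82 CPM in wild type at 24, 48 and 72 hpf, and 3.27, 2.54 and 2.94 CPM in gata5, tbx5 and hand2. The fractions did not overlap. It was the only member whose 12 GFP-positive libraries all lay above the 6 others, which is 1.69% of members against 1.35% of all genes. Its log2 fold change was 2.29 ± 0.46 (SE) with an adjusted p of 0.00134. TGF-beta 1 is also made by leukocytes, whose 8 markers summed to 160 to 1260 CPM in the GFP-positive and 36.6 to 124 CPM in the GFP-negative libraries, with 5 of the 8 higher and 1 lower in GFP-positive cells. Their part in the tgfb1b difference was not tested. The other TGF-beta 1 gene, tgfb1a, read -0.41 ± 0.27 on the log2 scale with an adjusted p of 0.276. TGFB2 read -0.18 ± 0.36 (0.758) and TGFB3, with TGFB2 a ligand of valve and cushion development in the mouse, -0.67 ± 0.31 (0.112).

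The gene gdf11 (ENSDARG00000044924), a ligand that patterns the body axis in the mouse, was lower in GFP-positive cells. It had no count in both GFP-positive libraries at 24 hpf and in both of gata5, where 3 counts would be 0.157 to 0.307 CPM. It read 5.26 and 6.52 CPM at 48 hpf, 0.0465 and 0 CPM at 72 hpf, 1.84 and 3.83 CPM in tbx5, and 3.32 and 0 CPM in hand2. The GFP-negative libraries read 12.6, 21.0 and 6.33 CPM in wild type by stage and 2.81, 7.26 and 7.6 CPM in gata5, tbx5 and hand2. The fractions overlapped, but in each condition both GFP-positive libraries lay below. The mean was 1.73 ± 2.39 CPM (SD, n = 12) against 9.6 ± 6.41 CPM (SD, n = 6). The fitted log2 fold change of -5.41 ± 1.39 had an adjusted p of 0.00737, and its size depends on the libraries at 0. It was the only one of the 18 calls that held in all 24 alternative settings.

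GDF5, a ligand of joint formation in the mouse, read 0 to 4.98 CPM (median 1.84) in GFP-positive and 0 to 21.1 CPM (median 10.5) in GFP-negative libraries. Both fractions were near 0 at 24 hpf and level at 48 hpf, at 3.41 and 2.6 CPM against 3.04 CPM. Its log2 fold change of -2.5 ± 0.83 had an adjusted p of 0.0317, and 10 of the 24 alternatives ended this call. GDF10 (ID 95378), a close relative of BMP3, read 1.25 to 22.6 CPM (median 6.86) against 10.8 to 56.4 CPM (median 25.2), so the ranges overlapped. Averaged over conditions it was lower by a log2 fold change of -1.9 ± 0.43 with an adjusted p of 0.00327. At 24 hpf both GFP-positive libraries lay above, at 18.5 and 22.6 CPM against 10.8 CPM, while in 5 of 6 conditions both lay below. Its partner GDF10 (ID 73891) read -1.88 ± 1.23 (0.277).

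BMP2 stands on 2 IDs, and the ligand acts in atrioventricular patterning. BMP2 (ID 41430) read 2.5 to 16.8 CPM (median 7.67) in GFP-positive and 9.38 to 28.1 CPM (median 15.9) in GFP-negative libraries. Both GFP-positive libraries lay below in 5 of 6 conditions, and the log2 fold change was -1.19 ± 0.37 with an adjusted p of 0.022. The call was lost without the GFP-negative library of gata5, tbx5 or hand2, where the adjusted p reached 0.113. BMP2 (ID 13409) read -1.93 ± 0.98 (0.154), and DESeq2 called it lower (0.045).

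With edgeR, no further BMP-type ligand except BMP3 was called. BMP5, known in the mouse heart and skeleton, read -0.46 ± 0.44 (adjusted p = 0.483). BMP6, also an inducer of the iron hormone hepcidin, read -0.07 ± 0.69 (0.952), and BMP7 0.21 ± 0.63 (0.838). BMP10, a ligand of the trabecular myocardium in the mouse, read 1.04 ± 4.25 (0.883), where the large error goes with libraries at 0. The eye-patterning ligand gdf6a read -0.72 ± 0.79 (0.541). For these ligands the average joins conditions of opposite direction. On the log2(CPM + 1) scale GFP-positive minus GFP-negative was 2.09, 1.57 and -0.81 for BMP6 in wild type by stage. It was -0.71, -0.77 and -0.43 in gata5, tbx5 and hand2. In the same order, BMP7 read 1.71, 1.3, -1.1, -1.88, 0.37 and 2.28. gdf6a read 1.79, 1.06, -2.26, -1.99, -0.94 and 0.38. BMP5 read -0.88, 2.38, -0.01, -1.54, -1.37 and 0.44. BMP10 read 2.25, 2.81, -0.48, -2.17, 1.8 and 2.4. 5 members did not pass the filter on low counts: GDF9 and bmp15, which are oocyte ligands, bmp7a, GDF2 and the type I receptor ACVR1C. Their highest level in any library was 1.16 to 4.24 CPM.

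BMP3 (ENSDARG00000060526), which inhibits other BMP ligands in mammalian bone, was called by edgeR in its main setting for a fraction difference that itself differed between conditions. Its GFP-positive libraries read 58.1 and 78.8 CPM at 24 hpf, 14.1 and 14.2 CPM at 48 hpf and 13.7 and 19.8 CPM at 72 hpf in wild type. In the backgrounds they read 3.17 and 4.71 CPM in gata5, 2.81 and 4.26 CPM in tbx5, and 5.88 and 4.21 CPM in hand2. The GFP-negative libraries read 19.5, 13.8 and 47.6 CPM by stage and 46.0, 26.0 and 36.0 CPM in gata5, tbx5 and hand2. GFP-positive cells were thus above at 24 hpf, level at 48 hpf and below in all 4 conditions at 72 hpf. On the log2(CPM + 1) scale the difference was 1.76, 0.03 and -1.45 in wild type by stage, and -3.25, -2.58 and -2.61 in gata5, tbx5 and hand2. The test for a difference that varies among the 6 conditions gave an adjusted p of 0.00926. It was the only one of 63 members that edgeR called there (1.59%, against 1.84% of all genes), while DESeq2 called 7, and the call held in all 16 alternatives. Beside BMP3, DESeq2 called TGFB3, BMP2K, TGFBR2 (ID 59363), BMP10, BMP7 and smad10b. With no filter on low counts edgeR also called TGFB3, BMP2K, BMP10 and smad10b, so a varying difference was not particular to BMP3. In the fit of this test a GFP-negative group is 1 library whose spread is taken from the GFP-positive pairs. In simulated data, unchanged genes outnumbered changed ones among the calls of this test, so it is read with reserve. Without replicate 1 or replicate 2 of wild type at 72 hpf the test called 2 and 3 members. Averaged over conditions, BMP3 read -1.91 ± 0.5 (0.00937), a value that joins conditions of opposite direction and a call lost without the GFP-negative library of gata5 or of tbx5. Xanthophore markers, at 157 to 374 CPM at 24 hpf and at least 10900 CPM in the other GFP-positive libraries, also differed between 24 hpf and the other conditions, and their part was not tested.

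Receptors made up 9 of the 16 lower calls: 4 of 10 type I receptors tested, 4 of 9 type II receptors and the co-receptor, where 16.9% of all genes were lower. No test compared receptors with the other members. The type I receptor bmpr1ba (ENSDARG00000104100), a BMP receptor of cartilage in the mouse, stood furthest apart. It read 1.91 to 11.6 CPM (median 6.43) in the GFP-positive libraries. The GFP-negative libraries read 42.6, 16.7 and 22.3 CPM by stage and 17.7, 18.8 and 44.4 CPM in gata5, tbx5 and hand2. The fractions did not overlap, and bmpr1ba was the only member entirely below, which is 1.69% of members against 1.9% of all genes. Its log2 fold change was -2.03 ± 0.34 with an adjusted p of 0.000312. The other gene of that type, bmpr1bb, read -1.55 ± 0.6 (0.0599) and was called with DESeq2 (0.0141).

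BMPR1A, a BMP type I receptor, was lower at one of its IDs. BMPR1A (ID 19728) read 21.4 to 101 CPM (median 50.2) against 59.6 to 122 CPM (median 87.6), overlapping, with a log2 fold change of -0.74 ± 0.18 and an adjusted p of 0.00547. BMPR1A (ID 105045) read -0.54 ± 0.2 (0.0535) and was called with DESeq2 (0.0276). The activin type I receptor ACVR1B (ID 18968) read 18.5 to 75.3 CPM (median 32.8) against 49.5 to 125 CPM (median 59.6), and was lower by a log2 fold change of -0.87 ± 0.2 (0.00288). ACVR1B (ID 52142) read 0.19 ± 0.21 (0.539). The TGF-beta type I receptor TGFBR1 (ID 42259) read 14.7 to 49.6 CPM (median 28.9) against 38.4 to 86.6 CPM (median 51.3), and was lower by a log2 fold change of -0.81 ± 0.23 (0.0127), a call lost without the GFP-negative library of gata5. TGFBR1 (ID 17494) read 0.16 ± 0.31 (0.742). For ACVR1B and TGFBR1 the IDs of a symbol thus had opposite signs, a difference that was not tested.

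One type I receptor was higher. acvrl1 (ENSDARG00000018179), known as ALK1 and as an endothelial receptor for BMP10 and GDF2, read 15.8 to 63.8 CPM (median 45.5) in GFP-positive and 15.8 to 38.2 CPM (median 25.6) in GFP-negative libraries. Both GFP-positive libraries lay above in 4 of 6 conditions, and the ranges overlapped. Its log2 fold change of 0.64 ± 0.21 had an adjusted p of 0.0268, and the call was lost without the GFP-negative library of tbx5 or of hand2. The 9 endothelial markers summed to 94.7 to 3610 CPM in GFP-positive and 190 to 622 CPM in GFP-negative libraries, with 3 lower and 0 higher in GFP-positive cells. The BMP type I receptor acvr1l, known in zebrafish as Alk8 and needed for dorsoventral patterning, read 58.1 to 97.3 CPM against 51.3 to 86.8 CPM. It lay above in all 6 conditions, but its log2 fold change of 0.25 ± 0.14 did not pass (0.205).

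The type II receptors BMPR2 and ACVR2B were lower at both of their IDs. ACVR2B, which binds activins and several GDF and BMP ligands, read 11.1 to 53.5 CPM (median 29.8) against 40.6 to 98.5 CPM (median 63.2) at ID 44422, with a log2 fold change of -1.12 ± 0.24 (0.00227). At ID 103108 it read 33.1 to 140.4 CPM (median 54.0) against 61.1 to 207 CPM (median 95.8), with -0.72 ± 0.15 (0.00183). In every condition both GFP-positive libraries lay below the GFP-negative one at both IDs. BMPR2, the type II receptor of BMP ligands, read 25.8 to 58.1 CPM (median 42.2) against 32.1 to 109.6 CPM (median 82.6) at ID 11941, with -0.75 ± 0.18 (0.00447). At ID 20057 it read 28.6 to 71.7 CPM (median 42.0) against 40.2 to 100 CPM (median 82.0), with -0.76 ± 0.18 (0.00409). ACVR2A, the other activin type II receptor, read 0.01 ± 0.17 (0.965). The TGF-beta type II receptor TGFBR2 read -0.64 ± 0.32 (0.145) at ID 34541 and 0.0 ± 0.76 (0.998) at ID 59363. TGFBR3, the co-receptor betaglycan, read 10.6 to 58.0 CPM (median 22.5) against 21.97 to 79.5 CPM (median 39.2) and was lower by -0.81 ± 0.29 (0.0436), a call that 15 of 24 alternatives ended.

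The Smads of the branches lay on different sides of 0. SMAD3 (ID 36096) read 6.61 to 34.2 CPM (median 16.7) in GFP-positive libraries. In the GFP-negative ones it read 31.99, 56.4 and 54.7 CPM by stage and 55.2, 44.7 and 36.7 CPM in gata5, tbx5 and hand2. A single GFP-positive library, replicate 1 of wild type at 72 hpf, lay above the lowest GFP-negative library. The log2 fold change was -1.45 ± 0.27 with an adjusted p of 0.000789. SMAD3 (ID 10207) read -0.89 ± 0.44 (0.143) and SMAD2 -0.21 ± 0.18 (0.417). The common Smad, SMAD4, read -0.84 ± 0.31 (0.0518; DESeq2 0.0129) at ID 12649 and -0.5 ± 0.23 (0.106) at ID 75226.

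The 3 BMP Smads all had log2 fold changes above 0 and none was called. SMAD1 read 0.46 ± 0.2 (0.0998), SMAD5 0.42 ± 0.29 (0.316) and smad9 0.64 ± 0.52 (0.39). Without the libraries at 24 hpf, SMAD1 (0.61, adjusted p = 0.0207) and SMAD5 (0.7, adjusted p = 0.0388) were called higher, and smad10b as well (1.67, adjusted p = 0.00762). That setting was chosen after seeing the data, and its share of all genes called is not given here. No test compared the BMP with the TGF-beta Smads. The inhibitory Smads read 0.2 ± 0.28 (0.637) for SMAD6 (ID 31763), 0.07 ± 0.26 (0.88) for SMAD6 (ID 53209) and -0.65 ± 0.3 (0.123) for SMAD7. Outside the core, BMP1 (ID 28071), a metalloprotease that cleaves procollagen and the BMP antagonist chordin, was lower by -0.49 ± 0.15 (0.0236), and 7 of 24 alternatives ended that call.

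Across the 12 symbols on 2 IDs, edgeR called both IDs for 2 (BMPR2 and ACVR2B), 1 ID for 7, and neither for SMAD4, SMAD6 and TGFBR2. DESeq2 also called SMAD4 (ID 12649), BMP2 (ID 13409) and BMPR1A (ID 105045). How alike the sequences of paired IDs are, and whether reads were divided between them, was not examined. The sources used here do not give how reads were counted.

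Stages were compared within GFP-positive wild-type cells. Between 24 and 48 hpf, 7 of 62 members tested were called (11.3%, against 13.4% of all genes). 4 rose (6.45%, against 9.06%) and 3 fell (4.84%, against 4.29%), so no share stood far from the background. The libraries of these stages did not overlap for 16 members higher at 48 hpf (25.8%, against 32.7% of all genes) and 24 lower (38.7%, against 21.9%). The median log2 fold change was -0.26 over the members and 0.15 over all genes. Without replicate 1 or replicate 2 at 48 hpf 3 members were called, and without replicate 2 at 24 hpf 4. Between 24 and 72 hpf, 8 were called (12.9%, against 15.7%), with 3 higher (4.84%, against 10.1%) and 5 lower (8.06%, against 5.6%). Without replicate 2 at 24 hpf 4 were called there. There 12 members were higher without overlap (19.4%, against 25.8% of all genes) and 23 lower (37.1%, against 22.2%). The members' median was -0.44 against 0.05 over all genes.

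The make-up of the GFP-positive fraction differed between these stages. Endothelial markers summed to 2350 to 3610 CPM at 24 hpf, 122 to 156 CPM at 48 hpf and 148 to 295 CPM at 72 hpf. Erythrocyte markers summed to 15300 to 17600, 1040 to 1360 and 553 to 565 CPM, and xanthophore markers to 157 to 374, 34700 to 35800 and 10900 to 19500 CPM. Cardiomyocyte markers summed to 1340 to 1530, 3340 to 4170 and 721 to 1330 CPM. Lists of other tissues were lowest at 24 hpf. Epidermis markers summed to 92 to 190, 2570 to 2740 and 1160 to 4780 CPM, and skeletal muscle markers to 29.2 to 29.8, 771 to 896 and 711 to 2380 CPM. Neural markers summed to 73.5 to 99.5, 444 to 466 and 381 to 552 CPM, cartilage markers to 144 to 236, 533 to 731 and 2030 to 7510 CPM, and mesenchyme markers to 882 to 1200, 1940 to 2220 and 2200 to 4370 CPM. The part of all these lists in the stage differences below was not tested.

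**Figure D3:**
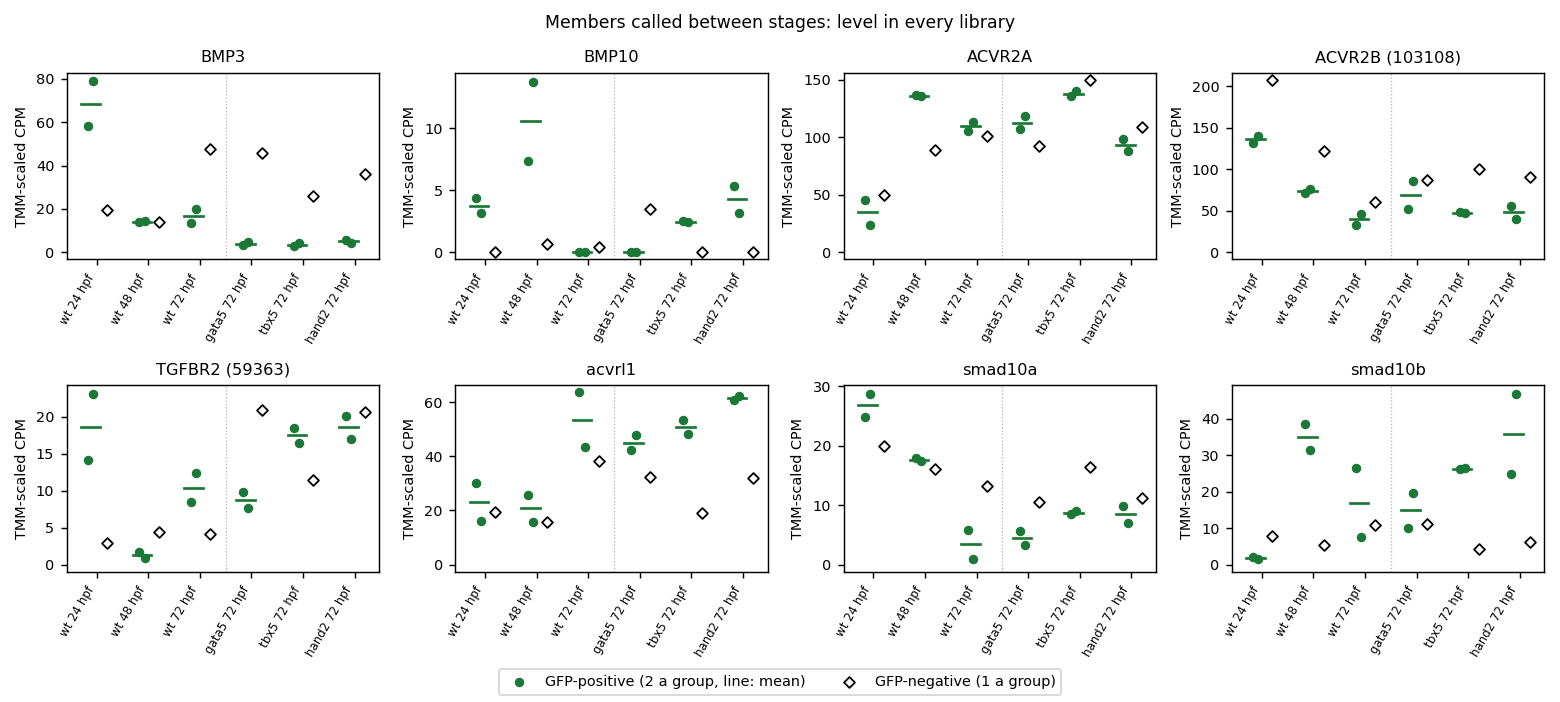
TMM-scaled CPM (y axis) of 8 members by condition (x axis), with filled points for the 2 GFP-positive libraries, a line for their mean and an open diamond for the GFP-negative library. ACVR2A lies at 23.8 and 45.7 CPM at 24 hpf and at 87.9 CPM or above in all later GFP-positive libraries, while ACVR2B (ID 103108) runs the other way and BMP10 is at 0 at 72 hpf in wild type and gata5.

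The activin type II receptors changed in opposite directions. ACVR2A (ENSDARG00000011188) read 45.7 and 23.8 CPM at 24 hpf, 137 and 136 CPM at 48 hpf, and 106 and 114 CPM at 72 hpf. Both later stages lay above the first with no overlap. It rose by a log2 fold change of 1.94 ± 0.32 to 48 hpf (adjusted p = 0.000755) and of 1.65 ± 0.32 to 72 hpf (0.00244). ACVR2B (ID 103108) read 132 and 140.4 CPM, then 71.1 and 76.3 CPM, then 33.1 and 46.5 CPM. Each stage lay below the one before, and the fall from 24 to 72 hpf was -1.79 ± 0.33 (0.00195), while the steps to 48 hpf (-0.92 ± 0.33, 0.0807; DESeq2 0.0425) and on to 72 hpf (-0.87 ± 0.33, 0.312) did not pass. The GFP-negative libraries, 1 a stage, read 49.5, 88.9 and 101 CPM for ACVR2A and 207, 122 and 61.1 CPM for ACVR2B (ID 103108), in the same order. acvr2ab, a second gene of the ACVR2A type, read 28.3 and 28.7 CPM, then 71.3 and 71.4 CPM, then 38.2 and 52.1 CPM. It rose to 48 hpf by 1.29 ± 0.4 (0.0475), and 8 of 16 alternatives ended this call. ACVR2B (ID 44422) read -0.35 ± 0.57 (0.798) to 48 hpf and -0.86 ± 0.57 (0.319) to 72 hpf.

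The Smads smad10a and smad10b also went apart. smad10b (ENSDARG00000070428) read 2.18 and 1.42 CPM at 24 hpf, 38.6 and 31.5 CPM at 48 hpf, and 26.6 and 7.47 CPM at 72 hpf. It rose by 4.25 ± 0.68 to 48 hpf (0.00064) and by 3.23 ± 0.65 to 72 hpf (0.00356). smad10a (ENSDARG00000045094) read 24.9 and 28.7 CPM, then 17.97 and 17.3 CPM, then 5.81 and 0.965 CPM. It was lower at 72 than at 24 hpf by -3.0 ± 0.82 (0.0214), a call lost without replicate 2 at 24 or at 72 hpf. The GFP-negative libraries read 7.97, 5.43 and 10.8 CPM for smad10b and 19.9, 16.02 and 13.2 CPM for smad10a. In the GFP-positive cells of the backgrounds, smad10b read 9.95 to 46.9 CPM and smad10a 3.28 to 9.83 CPM.

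TGFBR2 read lowest at 48 hpf at both IDs. TGFBR2 (ID 59363) read 14.1 and 23.1 CPM at 24 hpf, 1.71 and 0.939 CPM at 48 hpf, and 8.46 and 12.4 CPM at 72 hpf. Between 24 and 48 hpf it fell, with a log2 fold change of -3.85 ± 0.69 (0.00147). The later difference of 3.0 ± 0.67 had an adjusted p of 0.0662 and was called with DESeq2. TGFBR2 (ID 34541) read 69.4 and 53.9 CPM, then 18.8 and 18.01 CPM, then 50.8 and 22.9 CPM. It fell to 48 hpf, with -1.78 ± 0.53 (0.0382), and leaving out any 1 of the 4 libraries compared ended that call. acvrl1 read 29.95 and 16.1 CPM, then 25.6 and 15.8 CPM, then 63.8 and 43.3 CPM, and was higher at 72 than at 24 hpf by 1.2 ± 0.39 (0.0499). 10 of 16 alternatives ended the acvrl1 call.

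BMP10 (ENSDARG00000061769) was present at the earlier stages and had no count at the last. It read 4.36 and 3.15 CPM at 24 hpf, 7.39 and 13.8 CPM at 48 hpf, and 0 in both libraries at 72 hpf. Against a floor of 3 counts over the group it was at least 65.4-fold lower at 72 than at 24 hpf (adjusted p = 0.0132). Against 48 hpf it was at least 196-fold lower, with an adjusted p of 0.0703 that did not pass. The GFP-negative libraries read 0, 0.645 and 0.396 CPM. BMP3, given above, fell to 48 hpf, with -2.31 ± 0.51 (0.00667), and read -2.05 ± 0.51 at 72 against 24 hpf (0.0125). Both BMP3 calls were lost without replicate 2 at 24 hpf, the first also without either library at 48 hpf and the second without replicate 1 at 72 hpf.

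SMAD6 (ID 53209), an inhibitor of BMP Smads, read 54.6 and 46.9 CPM at 24 hpf, 43.0 and 74.0 CPM at 48 hpf, and 13.5 and 23.3 CPM at 72 hpf. It was lower at 72 than at 24 hpf by -1.48 ± 0.44 (0.035), and the call was lost without either library at 24 hpf or without replicate 1 at 72 hpf. BMP1 (ID 28071) read 49.7 and 29.4 CPM, then 75.6 and 97.4 CPM, then 73.7 and 69.7 CPM, and rose to 48 hpf by 1.1 ± 0.33 (0.0366). 5 of 16 alternatives ended the BMP1 call.

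Some ligands read highest at 24 hpf without passing the test in its main setting. gdf6a read 95.6 and 99.9 CPM at 24 hpf, 19.3 and 37.5 CPM at 48 hpf, and 0 and 5.26 CPM at 72 hpf, with a log2 fold change of -5.21 ± 1.72 over the whole interval (0.0835). DESeq2 called that difference (-5.17, adjusted p = 0.000343). BMP6 read 73.5 and 46.1 CPM, then 15.98 and 31.3 CPM, then 0.0465 and 14.7 CPM, with -3.03 ± 1.6 (0.245). gdf3, the zebrafish Vg1 ligand, read 19.6 and 19.2 CPM at 24 hpf and 0 to 3.25 CPM later in wild type. BMP5 instead read 7.71 and 24.6 CPM, then 54.8 and 60.1 CPM, then 21.7 and 24.4 CPM, with 1.79 ± 0.62 to 48 hpf (0.0729). These results depend on the filter. With no filter on low counts edgeR called BMP6 at 72 against 24 hpf (adjusted p = 0.00014) and BMP5 at 48 against 24 hpf (0.0273). In that setting it also called gdf6a at 48 against 24 (0.00909), 72 against 48 (2.6e-06) and 72 against 24 hpf (4.88e-14). BMP7 differed by 0.07 to 48 hpf and -1.73 to 72 hpf (0.159).

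The members that follow did not pass with edgeR between any of the stages. At 48 against 24 hpf DESeq2 called tgfb1a (adjusted p = 0.0263), gdf11 (0.0135) and bmpr1bb (0.0362) among them. Against 24 hpf, BMP2 (ID 41430) read -0.56 at 48 and -0.29 at 72 hpf, and BMP2 (ID 13409) -3.11 at both. tgfb1a read -1.51 ± 0.51 (0.0686) and -1.15 ± 0.51 (0.147), TGFB2 0.45 and 0.97, and TGFB3 -0.39 and -0.45. Among type I receptors, BMPR1A read -0.75 and -0.91 at ID 19728 and -0.75 and -0.55 at ID 105045, and acvr1l -0.32 and -0.61. ACVR1B read 0.7 and -0.04 at ID 18968 and -0.1 and 0.27 at ID 52142, TGFBR1 0.27 and -0.42 at ID 42259 and -1.3 and -0.46 at ID 17494, and bmpr1ba -0.21 and -1.24. Only bmpr1ba and TGFBR1 (ID 17494) among these type I receptors differed by more than 1 log2 unit. The type I receptor bmpr1bb, not in that list, read 7.78 and 20.3 CPM at 24 hpf and 1.35 and 1.82 CPM at 48 hpf. At 72 hpf it read 2.46 and 17.8 CPM. With DESeq2 its log2 fold change to 48 hpf was -3.24. Among the others, BMPR2 read 0.68 and 0.66 at ID 11941 and 0.77 and 0.2 at ID 20057, and TGFBR3 1.03 at both stages. gdf11 went from no count to 192 counts over the 48 hpf libraries, which is at least 65.2-fold higher (adjusted p = 0.119), and to 1 count at 72 hpf. bmp7a read at most 0.727 CPM in any GFP-positive library.

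None of the receptor Smads or SMAD4 passed between stages with edgeR in its main setting. With no filter on low counts edgeR called smad9 lower at 72 than at 48 hpf (-2.44, adjusted p = 0.0216). It read 40.4 and 44.6 CPM at 48 hpf and 10.6 and 4.64 CPM at 72 hpf. Against 24 hpf, SMAD1 read 0.67 ± 0.32 at 48 and 0.26 ± 0.32 at 72 hpf, SMAD5 0.17 ± 0.5 and 0.31 ± 0.5, and smad9 1.25 ± 0.74 and -1.21 ± 0.74. SMAD2 read -0.55 ± 0.37 and -0.29 ± 0.37, and SMAD3 2.25 ± 0.88 and 2.5 ± 0.88 (0.0713; DESeq2 0.0392 and 0.0121) at ID 10207 and -0.1 ± 0.62 and 0.03 ± 0.62 at ID 36096. SMAD4 read 1.22 ± 0.7 and 1.19 ± 0.7 at ID 12649 and -0.74 ± 0.5 and -0.43 ± 0.49 at ID 75226. SMAD7 read -0.75 ± 0.57 and -0.77 ± 0.57, and SMAD6 (ID 31763) -0.11 ± 0.39 and -0.94 ± 0.39 (0.123).

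Between 48 and 72 hpf no member was called with edgeR in its main setting, where 0.488% of all genes were, 0.261% higher and 0.227% lower. At an unadjusted p under 0.05 there were 9 of 62 members, against 2716 of 23767 genes. DESeq2 called 4 members, acvrl1, SMAD6 (ID 53209), TGFBR2 (ID 59363) and BMP10, and its count over all genes stands in the closing section. With no filter on low counts edgeR called these members as well as smad9 and gdf6a. The libraries of the stages did not overlap for 9 members that were higher at 72 hpf (14.5%, against 17% of all genes) and for 21 that were lower (33.9%, against 23.7%). With 2 libraries a stage such separation was common among all genes. Leaving out replicate 1 at 72 hpf gave 3 members called, leaving out replicate 2 at 72 hpf or either library at 24 hpf gave 2, and leaving out either gata5 library gave 1.

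The backgrounds were compared with wild type in GFP-positive cells at 72 hpf, where the same wild-type libraries enter each comparison. With edgeR in its main setting no member passed in gata5, tbx5 or hand2. None passed in the joint test of any difference among wild type and the 3 backgrounds, and few genes did at all. The share called over all genes was 0.105% in gata5 (0.0757% higher, 0.0295% lower), 0.0463% in tbx5 (0.0421% and 0.00421%), 0.0505% in hand2 (0.0337% and 0.0168%) and 0.143% in the joint test. At an unadjusted p under 0.05 there were 7, 8, 6 and 8 of 62 members, against 2290, 1983, 2160 and 1848 of 23767 genes. DESeq2 called 1, 3, 2 and 3 members, and its counts over all genes stand in the closing section. Without replicate 1 of wild type 1 member was called in gata5, 3 in tbx5 and 2 in the joint test, and without replicate 2 of wild type 1 in gata5 and 1 in hand2. The libraries did not overlap for 7 higher and 13 lower members in gata5 (background 17.6% and 14.8%), 10 higher and 13 lower in tbx5 (20.8% and 14.3%), and 13 higher and 8 lower in hand2 (27.2% and 15.8%). These are 11.3% and 21%, 16.1% and 21%, and 21% and 12.9% of the 62 members. The values below are therefore descriptions of these libraries. Cardiomyocyte markers summed to 721 to 1330 CPM in wild type at 72 hpf, 116 to 1030 CPM in gata5, 291 to 393 CPM in tbx5 and 931 to 2830 CPM in hand2. Other lists differed as well. Cartilage markers summed to 2030 to 7510 CPM in wild type, 1150 to 4610 CPM in gata5, 1100 to 2010 CPM in tbx5 and 544 to 1060 CPM in hand2. Mesenchyme markers summed to 2200 to 4370, 1280 to 2300, 1180 to 1630 and 914 to 1780 CPM in the same order, and neural markers to 381 to 552, 262 to 296, 238 to 267 and 220 to 251 CPM. Epidermis markers summed to 1160 to 4780, 2900 to 15000, 571 to 605 and 476 to 610 CPM, and leukocyte markers to 284 to 372, 272 to 727, 453 to 613 and 929 to 1260 CPM. The part of these lists in the values that follow was not tested.

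BMP3 read lower in each background. Against 13.7 and 19.8 CPM in wild type, the 3 backgrounds read 2.81 to 5.88 CPM over their 6 libraries, with no overlap. The log2 fold change was -2.11 ± 0.52 in gata5 (0.171), -2.26 ± 0.52 in tbx5 (0.23) and -1.73 ± 0.51 in hand2 (0.275), and the joint test gave 0.169. DESeq2 called it in gata5 (0.00601), tbx5 (0.00236) and hand2 (0.0258). In the GFP-negative fraction BMP3 read 47.6 CPM in wild type and 26.0 to 46.0 CPM in the backgrounds.

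BMP10, at 0 in wild type at 72 hpf and in both gata5 libraries, read 2.5 and 2.47 CPM in tbx5 and 5.34 and 3.19 CPM in hand2. It was at least 44.4-fold higher in tbx5 (0.306) and at least 77.7-fold higher in hand2 (0.186), neither past the threshold, while DESeq2 called both (0.00121 and 0.000236). All 4 of these libraries lay below the pair of wild type at 48 hpf. In the GFP-negative fraction of gata5 BMP10 read 3.51 CPM. BMP5 read 21.7 and 24.4 CPM in wild type, 5.61 and 8.81 CPM in gata5, 3.57 and 3.21 CPM in tbx5, and 22.9 and 7.84 CPM in hand2. It did not overlap wild type in gata5 (-1.7 ± 0.62, 0.401) or tbx5 (-2.77 ± 0.65, 0.231), and DESeq2 called the tbx5 difference (0.00592).

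**Figure D4:**
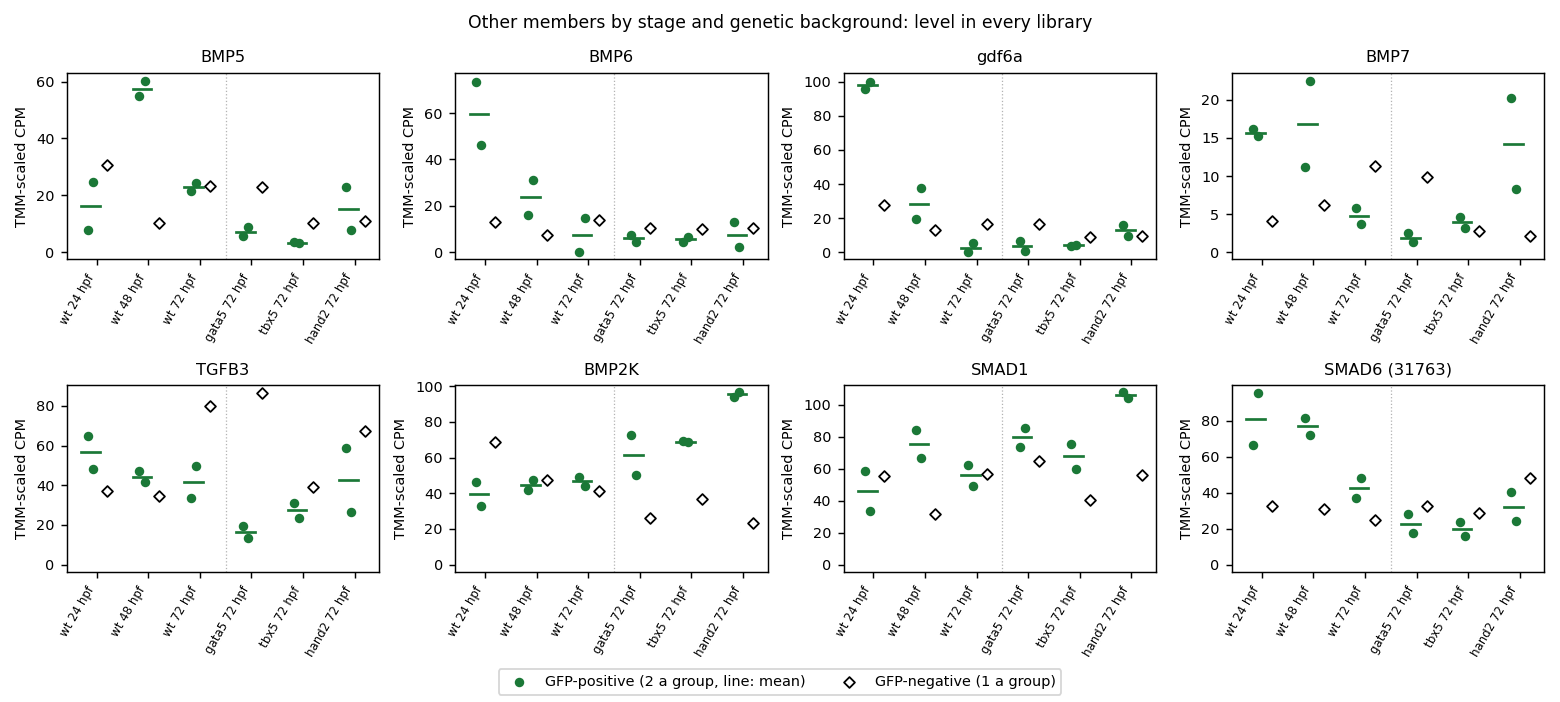
TMM-scaled CPM (y axis) of 8 further members by condition (x axis), with filled points for the 2 GFP-positive libraries, a line for their mean and an open diamond for the GFP-negative library. BMP5 lies at 3.21 to 8.81 CPM in gata5 and tbx5 against 21.7 and 24.4 CPM in wild type at 72 hpf, and BMP2K at 94.1 and 96.7 CPM in hand2 against 49.1 and 44.2 CPM.

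TGFB3 read 33.7 and 49.6 CPM in wild type, 19.3 and 13.6 CPM in gata5, 31.2 and 23.7 CPM in tbx5, and 58.8 and 26.6 CPM in hand2. The libraries of gata5 (-1.35 ± 0.43, 0.326) and tbx5 (-0.61 ± 0.42, 0.655) lay below wild type and those of hand2 overlapped it. SMAD1 read 62.1 and 49.3 CPM in wild type and 108 and 104 CPM in hand2, with 0.93 ± 0.32 (0.402). BMP2K, a kinase of endocytic adaptors rather than a pathway component, read 49.1 and 44.2 CPM and 94.1 and 96.7 CPM, with 1.03 ± 0.31 (0.298). SMAD6 (ID 31763) read 36.9 and 48.4 CPM in wild type, 28.1 and 17.4 CPM in gata5 and 23.5 and 15.98 CPM in tbx5, with -0.92 ± 0.39 (0.491) and -1.12 ± 0.39 (0.471). Both of these backgrounds lay below wild type.

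The other named members are given as log2 fold changes against wild type in gata5, tbx5 and hand2 in turn. TGFB2 read -1.27, -1.78 and -1.26, and tgfb1a 0.74, 0.43 and 0.15. The wild-type libraries of TGFB2 lay far apart, at 22.4 CPM in replicate 1 and 85.6 CPM in replicate 2. It read 27.5 and 17.6 CPM in gata5 and 31.9 and 13.2 CPM in hand2, overlapping wild type in both. In tbx5 it read 16.1 and 15.6 CPM, below both wild-type libraries. BMP2 read -0.51, -0.92 and -0.76 at ID 41430 and 1.59, -2.3 and 0.41 at ID 13409. BMP6 read -0.32, -0.43 and 0.05, BMP7 -1.31, -0.29 and 1.58, and gdf6a 0.38, 0.64 and 2.26. The ligands in this list showed no common direction. Over all ligands tested, more lay below 0 than above it in gata5 and tbx5. In gata5, 4 BMP-type ligands lay above 0 and 9 below, with 2 and 3 TGF-beta ligands and 0 and 4 other GDF ligands. In tbx5 these were 4 and 11, 1 and 4, and 1 and 3, and in hand2 9 and 7, 2 and 3, and 1 and 3. The median over all genes was 0, 0.02 and 0.08, and these counts were not tested. Among type I receptors, BMPR1A read -0.37, -0.78 and -0.17 at ID 19728 and -0.4, -0.99 and -0.94 at ID 105045, and bmpr1ba 0.82, 0.69 and 0.57. ACVR1B read -0.59, -0.47 and -0.7 at ID 18968 and -0.16, -0.23 and -0.46 at ID 52142, TGFBR1 -0.43, 0.53 and -0.12 at ID 42259 and 0.28, 0.36 and 0.29 at ID 17494, acvr1l 0.08, 0.29 and 0.07, and acvrl1 -0.27, -0.08 and 0.2. No type I receptor among these differed by more than 1 log2 unit. Over all type I receptors tested the lowest value was -1.55 in gata5, -1.15 in tbx5 and -2.33 in hand2. bmpr1bb, not in that list, read 2.46 and 17.8 CPM in wild type and 5.61 and 1.33 CPM in gata5. It read 5.3 and 3.89 CPM in tbx5 and 3.49 and 0.539 CPM in hand2, overlapping wild type in each. Among type II receptors, ACVR2A read 0.02, 0.32 and -0.24, ACVR2B 0.77, 0.26 and 0.28 at ID 103108 and 0.18, 0.03 and -0.29 at ID 44422, BMPR2 0.2, -0.34 and -0.39 at ID 11941 and -0.32, 0.39 and 0.07 at ID 20057. TGFBR2 read -0.76, -1.32 and -0.88 at ID 34541 and -0.28, 0.74 and 0.83 at ID 59363, and TGFBR3 -0.2, -0.84 and 0.53.

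The Smads that remain are given in the same way. smad10a read 0.39, 1.37 and 1.32, and smad10b -0.22, 0.62 and 1.07. SMAD5 read -0.24, 0.24 and -0.07, smad9 0.16, 0.15 and 0.83, and SMAD2 -0.19, 0.02 and 0.19. SMAD3 read -0.97, -0.94 and -0.76 at ID 36096 and -1.48, -0.56 and -0.49 at ID 10207. SMAD4 read -0.92, -0.11 and -0.77 at ID 12649 and 0.41, 0.01 and 0.0 at ID 75226, SMAD6 (ID 53209) 0.64, -0.38 and 0.28, and SMAD7 -0.49, -0.5 and -0.21. None of these values passed the test, which does not show that the backgrounds are alike. Besides BMP10, 4 ligand genes had no count in 1 group and at least 30 over both groups compared. gdf6b was at least 18.6-fold lower in gata5, and gdf3 at least 9.05-fold lower in gata5 and 19.2-fold lower in hand2. bmp15, with counts of 0 and 45 in the tbx5 pair, was at least 17.9-fold higher there, and GDF2 at least 14.2-fold higher in hand2. None passed with edgeR in the main setting. With no filter on low counts edgeR called gdf6b in gata5 (adjusted p = 0.0196) and gdf3 in the joint test (0.0237). Also called without the filter were TGFB2 (0.0363), BMP3 (0.0419) and BMP5 (0.00308) in tbx5, and gdf6a (0.00762) and BMP10 (0.0289) in hand2. The joint test without the filter further called TGFB2 (0.0399), gdf6a (0.00233), BMP3 (0.0101), BMP10 (0.00406) and BMP5 (0.0027). The bounds of gdf6b and gdf3 rest on 1 wild-type library each. The counts of the wild-type pair were 0 and 144 for gdf6b and 70 and 0 for gdf3, and without that library neither has a bound. gdf11 had 1 count over the wild-type libraries, 0 in gata5, 115 in tbx5 and 79 in hand2, and the ratio to wild type was 137 in tbx5 (95% counting interval 24.1 to 5450) and 95.9 in hand2 (16.7 to 3830), with adjusted p of 0.606 and 0.589.

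Genes that act on the pathway from outside the family were read from 5 lists. Extracellular modulators, mostly antagonists and matrix proteins that hold ligands, read lower in GFP-positive than in GFP-negative cells. With edgeR, 13 of 28 tested were lower and 0 higher, where 16.9% of all genes were lower and 12.4% higher, with a median log2 fold change of -1.67 against -0.26 over all genes. Among the furthest were the BMP antagonists NOG (ID ENSDARG00000058819, -6.84 ± 1.75, mean 0.34 against 2.57 CPM) and chrd (-3.65 ± 1.22, 1.17 against 6.47 CPM). Of 6 further ligands tested, INHBA (ID ENSDARG00000012671), an activin subunit, was lower (-2.28 ± 0.77, 0.0344). The other INHBA ID, ENSDARG00000024759, was not called.

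Intracellular regulators went both ways, and the same shares of all genes stand as background for this list and the targets. Of 16 tested, the Smad co-repressor gene skilb was higher (1.55 ± 0.24, 0.000163) and 4 were lower, with skib (-1.31 ± 0.17) and SKI (-0.88 ± 0.22) of the same co-repressor family among them. Of 12 genes listed as BMP targets, 3 were higher and 2 lower, the latter a share near the background. The 3 that differed most were hamp, the gene of hepcidin (5.85 ± 1.7), ID4 (-1.8 ± 0.63) and TBX2 (ID ENSDARG00000006120, -1.48 ± 0.25). The other TBX2 ID, ENSDARG00000018025, was not called. hamp was at a low level, with a mean of 2.99 against 0.132 CPM. The other targets called higher were msx2b (1.04 ± 0.35) and ID3 (0.89 ± 0.24, mean 118.5 against 57.65 CPM). Of 16 TGF-beta targets, snai1a was higher (1.0 ± 0.29, 0.0165) and 6 were lower, led by COL1A2 (-2.27 ± 0.26), TGFBI (-1.95 ± 0.25) and ccn2b (-1.95 ± 0.57). COL1A2 and the 2 POSTN IDs, all lower, stand in the mesenchyme list as well.

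Across stages, 3 modulators rose and 1 fell from 24 to 48 hpf, out of 28, near the 9.06% and 4.29% of all genes. TLL1, a tolloid protease, fell from a mean of 130.8 to 10.9 CPM (-3.62 ± 0.94, 0.0262). FSTL3 and NOG (ID ENSDARG00000053528) rose from no count at 24 hpf to 7.12 and 2.65 CPM. The activin subunit INHBB (ID ENSDARG00000040777) rose from 7.86 to 64.5 CPM (3.0 ± 0.61, 0.00462) and skilb from 10.6 to 91.1 CPM (3.07 ± 0.41, 0.000161). The other INHBB ID, ENSDARG00000103892, was not called. The BMP targets ID2 (1.94 ± 0.36, 0.00209) and ID3 (1.4 ± 0.37, 0.0187) rose, out of 14 tested. Of 16 TGF-beta targets 5 rose, led by POSTN (ID ENSDARG00000043806, no count at 24 hpf), FN1 (ID ENSDARG00000006526, 3.67 ± 0.44) and acta2 (3.12 ± 0.75), and 2 fell. The 2 that fell included the other FN1 ID, ENSDARG00000019815 (-1.69 ± 0.38). Its mean went from 438.2 to 139.2 CPM, while that of ENSDARG00000006526 went from 25.5 to 333.7 CPM, so FN1 had no single direction. The FN1 IDs also went apart at 72 against 24 hpf (2.94 ± 0.42 for ENSDARG00000006526 and -1.78 ± 0.38 for ENSDARG00000019815). At 72 against 24 hpf, where 10.1% of all genes were higher and 5.6% lower, the counts were 3 higher and 1 lower modulators, 1 and 1 other ligands, with lft2 down from 23.4 to 0.0232 CPM, 1 and 1 intracellular regulators, 2 and 0 BMP targets, and 6 and 1 TGF-beta targets. From 48 to 72 hpf only POSTN (ID ENSDARG00000043806) passed (3.46 ± 0.58, 0.0163). With edgeR none of the 82 genes of the 5 lists tested passed in gata5, tbx5 or hand2, and DESeq2 called 1, 0 and 2. At an unadjusted p under 0.05 there were 11, 8 and 8 of the 82, against 2290, 1983 and 2160 of 23767 genes.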

How the data were processed

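The 18 libraries hold total RNA of GFP-sorted cells from zebrafish embryos and were made with a low-input SMARTer kit, per the labels. Per the submitters' processing notes, Trimmomatic 0.36, STAR 2.5, SAMtools 1.4, DESeq2 and the GRCz10 build were used. The counting tool, annotation release and strand setting were not given in the sources used here. The authors deposited whole-number counts per gene ID, with no normalization, and these were used as deposited. A regularized-log table deposited beside them was not used here.

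Groups came from the labels. Counts were tested with edgeR 4.0.16 (R 4.3.3) by its two-sided quasi-likelihood F test, with TMM scaling, genes kept by a minimum count of 10 and total of 15, robust dispersions and Benjamini-Hochberg adjustment over all genes tested, at an adjusted p of 0.05. GFP fractions were compared over 18 libraries with condition as a term (21729 genes). Stages and backgrounds were compared in the 12 GFP-positive libraries as 6 groups (23767 genes, 6 residual degrees of freedom). Whether the fraction difference varied was tested with 5 degrees of freedom (26357 genes). The standard error is the log2 fold change over the square root of F. Levels are TMM-scaled CPM, and a fold against a group at 0 uses a floor of 3 counts over the group. Intervals and floors cover counting error only. The code was tested on simulated data. Alternatives were DESeq2 1.42.0, other size factors, no filter, the replicate number as a block, wild-type libraries alone and each library left out. Figures were drawn with matplotlib 3.10.9.

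The members, lists and tests were chosen with earlier results of these data known. Named genes are every called member and a list of ligands, receptors and Smads given whatever their values. By rule the 3 called genes with the largest changes in each of 5 pathway lists are named too, with a few others beside them. A second BMP10 ID and 1 BMP ligand gene are not analysed here, and 1 pathway gene that this rule would name is not reported here.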

Additional observations from a re-analysis of the deposited data

Results flagged for a closer look

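BMP3 differed between conditions in its fraction difference, by the test of that difference itself (edgeR, adjusted p = 0.00926, 5 degrees of freedom). On the log2(CPM + 1) scale GFP-positive minus GFP-negative was 1.76 at 24 hpf, 0.03 at 48 hpf and -1.45 at 72 hpf in wild type, and -3.25, -2.58 and -2.61 in gata5, tbx5 and hand2. The GFP-negative fraction has 1 library in each condition. The adjusted p ran from 0.00534 to 0.0294 with 1 library left out, and from 2.09e-07 (DESeq2) to 0.0294 over the 16 alternatives. In simulated data, unchanged genes outnumbered changed ones among the calls of this test with edgeR.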

How the results depend on the processing

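Of 34 member calls, 9 held in every alternative and none changed direction. With wild-type libraries alone the fraction comparison called 1 member in place of 18, and 10 of the 18 calls were lost there only. DESeq2 called 13 members between 24 and 48 hpf in place of 7, 4 between 48 and 72 hpf in place of 0, and 1, 3, 2 and 3 in gata5, tbx5, hand2 and the joint test in place of 0. It called 7 with a varying fraction difference in place of 1. With no filter on low counts these were 6 between 48 and 72 hpf, 1, 3, 2 and 6 for the backgrounds and 5 for the varying difference. Over all genes DESeq2 called 1166 against 116 between 48 and 72 hpf, 840 against 25 in gata5, 593 against 11 in tbx5, 663 against 12 in hand2, 642 against 34 in the joint test, 1433 against 485 for the varying difference, 4893 against 3173 between 24 and 48 hpf and 6195 against 3743 between 24 and 72 hpf. The cause was not tested. The share of all genes called with no filter is not given here, so the member counts of that setting are not read as particular to the members.

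With 1 library left out in turn, members called ran from 12 to 25 for the fractions, 3 to 8 between 24 and 48 hpf, 0 to 3 between 48 and 72 hpf, 4 to 11 between 24 and 72 hpf, 0 to 1 in gata5, 0 to 3 in tbx5, 0 to 1 in hand2, 0 to 2 in the joint test and 1 to 3 for the varying difference. Replicate numbers showed no shared difference among the GFP-positive groups: over 15 pairs of groups the differences between replicates correlated from -0.0871 to 0.0852. Whether a GFP-positive library is paired with the GFP-negative one of its condition could not be examined this way. With the replicate block 13 members were called for the fractions, 6 between 24 and 48 hpf, 0 between 48 and 72 hpf, 8 between 24 and 72 hpf, 0 in each background and the joint test, and 1 for the varying difference. The share of all genes called with the replicate block or with 1 library left out is not given here. These member counts are therefore not read against a background. With 2 libraries a group, members at few counts (such as GDF2, bmp15 or ACVR1C) have little power.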
